A study of Mesocricetus auratus with 24 samples.

Results

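The 10 genes described here encode neuropeptide precursors and granins, and were measured in the inferior colliculus (IC) of hamsters, the midbrain auditory nucleus in which audiogenic seizures begin. They were *Npy*, *Vgf*, *Scg2*, *Sst*, *Penk*, *Pdyn*, *Cck*, *Tac1*, *Adcyap1* and *Crh*. A gene was taken from the value table when a probe set carried its symbol and no other, with the brightest such probe set standing for the gene. All 10 genes were found among the 19938 genes tested, each with 1 probe set, and none was removed for low signal.

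Neuropeptides are made as long precursors, cut by prohormone convertases and stored in dense-core vesicles, from which they are released mainly during strong or repeated firing. Granins, the family of *Scg2* and, in a wider sense, *Vgf*, help to form these vesicles and are themselves cut into peptides. Many of these precursor genes are known to be transcribed more when neurons are active, and neuropeptide Y, somatostatin and the opioid dynorphin are known for dampening excitability in seizure models.

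RNA came from the IC of 24 animals aged 16 weeks, each hybridised to a mouse whole-transcript array. Control Syrian hamsters and the genetic audiogenic seizure hamster of the University of Salamanca (GASH:Sal), a line bred for convulsions evoked by loud sound, were each examined without sound (naïve) and after auditory stimulation (stimulated), with 6 animals in each of the 4 groups. The IC of stimulated animals was taken 60 min after the stimulus. Because the GASH:Sal line convulses to sound and control hamsters do not, sound and seizure cannot be told apart in GASH:Sal. The labels call every array a biological replicate and name the animals in 2 styles, here label series A (replicates 1 to 3) and B (replicates 4 to 6), whose meaning the sources used here do not give. The IC was used as a piece of tissue, so that fewer cells of a type and less RNA per cell cannot be told apart.

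Values are log2 signals after RMA, and a difference of 1 stands for a doubling. Because hamster RNA was read by mouse probes, a gene's signal was compared between groups and not with the signal of another gene. Array medians lay between 4.501 and 4.65. A pair of arrays stood apart from the rest, naïve GASH:Sal replicate 6 and stimulated Syrian replicate 4, each with a mean correlation of 0.969 with the other arrays of its group. Differences were estimated with limma over all 24 arrays with label series as a covariate, and p-values were adjusted over all genes by the Benjamini-Hochberg method. A gene was called at an adjusted p under 0.05. Group means were 8.28 to 8.45 for the neuronal marker *Gad1* (GABA synthesis) and 7.84 to 8.07 for *Slc17a6* (glutamate loading of vesicles). The files hold no detection call, so neither presence nor absence of a marker could be read from its signal.

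No precursor gene was called in any of the 7 contrasts fitted on all 24 arrays with equal weight. In the comparison of naïve animals of both strains, 8 of the 10 genes had lower signal in GASH:Sal, with a median difference of -0.12 against -0.01 over all genes, and *Vgf* had the largest difference. In GASH:Sal, *Pdyn* differed by 0.29 and *Adcyap1* by 0.18 between stimulated and naïve animals, neither past the adjusted threshold. Their mean signals lay at percentiles 50.2 and 46.3 of all genes. The values of *Npy*, *Sst* and *Vgf* in naïve GASH:Sal depended on replicate 6 of that group, and results are given with and without it. That array was singled out for its high *Npy* value, so results without it, p-values included, are a description.

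**Figure D1:**
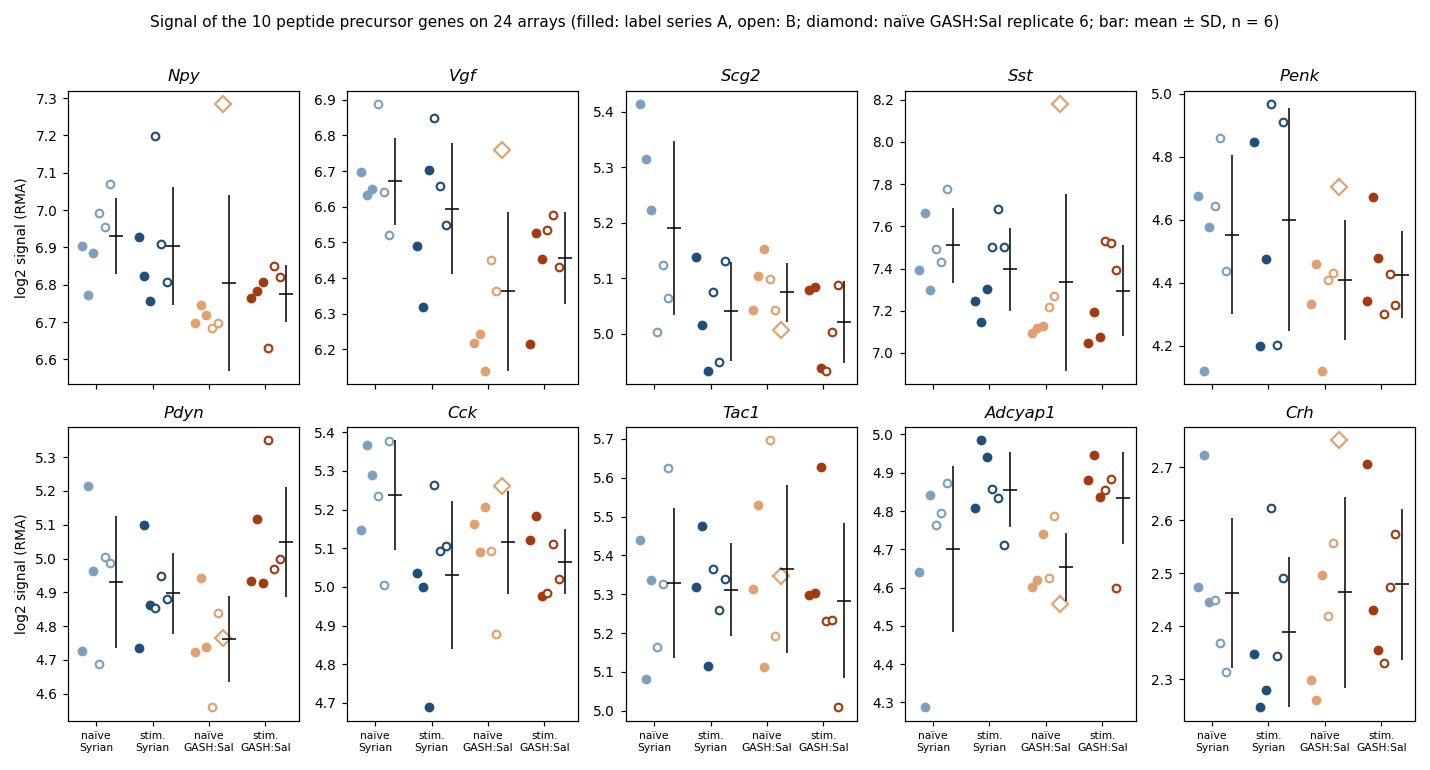
Log2 signal (y axis, a separate range for each gene) of the 10 precursor genes on each of 24 arrays, by strain and sound on the x axis. Filled points are label series A, open points label series B, the diamond is naïve GASH:Sal replicate 6, and bars give the mean ± SD of 6 arrays; this array has the highest *Npy* (7.28), *Sst* (8.18) and *Crh* (2.75) signal of all 24.

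*Npy* encodes neuropeptide Y, an inhibitory peptide of many GABAergic interneurons. Its log2 signal ran from 6.77 to 7.07 in naïve Syrian animals (median 6.93) and from 6.68 to 7.28 in naïve GASH:Sal animals (median 6.71). The 7.28 belonged to replicate 6, and the other 5 naïve GASH:Sal arrays lay between 6.68 and 6.75, below every naïve Syrian array. After sound, *Npy* ran from 6.76 to 7.20 in Syrian animals (median 6.87) and from 6.63 to 6.85 in GASH:Sal animals (median 6.80), ranges that overlapped. With all arrays, the naïve strains differed by -0.12 ± 0.09 (SE) on the log2 scale, GASH:Sal minus Syrian, which was within the spread between animals (limma, unadjusted p = 0.159, adjusted p = 0.872). Without replicate 6 the difference was -0.21 ± 0.07 (unadjusted p = 0.00716, adjusted p = 0.384), a signal 1.16-fold lower in GASH:Sal. Over both sound conditions it was -0.13 ± 0.06 with all arrays (unadjusted p = 0.0480, adjusted p = 0.618) and -0.17 ± 0.05 without replicate 6 (adjusted p = 0.190). Because replicate 6 was singled out by its *Npy* value, the *Npy* p-values without it are a description and no test. The strain difference had the same sign in both label series, -0.13 for series A against -0.12 for series B in naïve animals. Series B holds replicate 6, and without that array its value was -0.32.

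The differences of *Npy* with sound were smaller than their SE in both strains. The difference between stimulated and naïve animals was -0.03 ± 0.09 in Syrian hamsters (95% interval -0.20 to 0.15) and -0.03 ± 0.09 in GASH:Sal (95% interval -0.21 to 0.15). Without replicate 6 the GASH:Sal difference was 0.06 ± 0.07, of the opposite sign.

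*Vgf* encodes a granin-like precursor of peptides released with neurotrophins and is known as a target of neuronal activity. Its log2 signal ran from 6.52 to 6.89 in naïve Syrian animals (median 6.64) and from 6.14 to 6.76 in naïve GASH:Sal animals (median 6.30). Replicate 6 held the 6.76, and the other 5 naïve GASH:Sal arrays, at 6.14 to 6.45, all lay below the lowest naïve Syrian array. The mean was 6.67 ± 0.12 (SD, n = 6) in naïve Syrian and 6.36 ± 0.22 (SD, n = 6) in naïve GASH:Sal. The difference of -0.31 ± 0.09 (SE; 95% interval -0.49 to -0.13), a 1.24-fold lower signal in GASH:Sal, had the lowest adjusted p of the 10 genes in this contrast and was not called (limma, unadjusted p = 0.00129, adjusted p = 0.616). It was found in 5 of 6 GASH:Sal arrays, and the exact permutation test of 6 against 6 arrays, two-sided, gave p = 0.0195. The difference was -0.46 within label series A and -0.16 within series B, or -0.28 within series B without replicate 6.

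Without replicate 6 the *Vgf* difference between naïve strains was -0.38 ± 0.08 (adjusted p = 0.0757). Arrays were also weighted by their own variance, which gave replicate 6 a weight of 0.301 and stimulated Syrian replicate 4 a weight of 0.251. The *Vgf* difference was then -0.38 ± 0.08 and was called (limma, adjusted p = 0.0329), 1 precursor gene of 10 where 0.0903% of all genes were called. The weights play down the array singled out by its *Npy* value, so this call too is a description. With both of these arrays left out, a choice made after seeing the data, the *Vgf* difference was also -0.38 ± 0.08 (adjusted p = 0.0259), where 0.321% of all genes were called. Stimulated Syrian replicate 4 is in neither naïve group and enters this comparison only through the shared spread and the label series. The value without both arrays is therefore a description and no test. The other precursor genes were not called there, with *Npy* at -0.22 ± 0.07 (adjusted p = 0.183) and *Sst* at -0.32 ± 0.08 (adjusted p = 0.0846). After sound, *Vgf* ran from 6.32 to 6.85 in Syrian animals (median 6.60) and from 6.22 to 6.58 in GASH:Sal (median 6.49). These groups overlapped, and the strain difference was -0.14 ± 0.09 (adjusted p = 0.901). The response to sound was -0.08 ± 0.09 in Syrian and 0.09 ± 0.09 in GASH:Sal animals, and the difference between these responses was 0.17 ± 0.12 (adjusted p = 1.0). Without replicate 6 the response in GASH:Sal was 0.16 ± 0.08, and the difference between responses was 0.24 ± 0.11 (unadjusted p = 0.0470, adjusted p = 0.971).

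*Sst* encodes somatostatin, an inhibitory peptide found in GABAergic neurons. It ran from 7.30 to 7.78 in naïve Syrian animals (median 7.46) and from 7.09 to 8.18 in naïve GASH:Sal animals (median 7.17). Replicate 6, at 8.18, was above all other arrays of the study, while the other 5 naïve GASH:Sal arrays, at 7.09 to 7.27, were below every naïve Syrian array. The naïve strains differed by -0.18 ± 0.11 with all arrays (adjusted p = 0.854) and by -0.32 ± 0.08 without replicate 6 (unadjusted p = 0.000456, adjusted p = 0.149). After sound, *Sst* ran from 7.15 to 7.68 in Syrian (median 7.40) and from 7.05 to 7.53 in GASH:Sal (median 7.29), with overlap. Stimulated and naïve GASH:Sal animals differed by -0.04 ± 0.11 with all arrays and by 0.11 ± 0.08 in the other direction without replicate 6. In Syrian animals the sound difference was -0.11 ± 0.11.

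**Figure D2:**
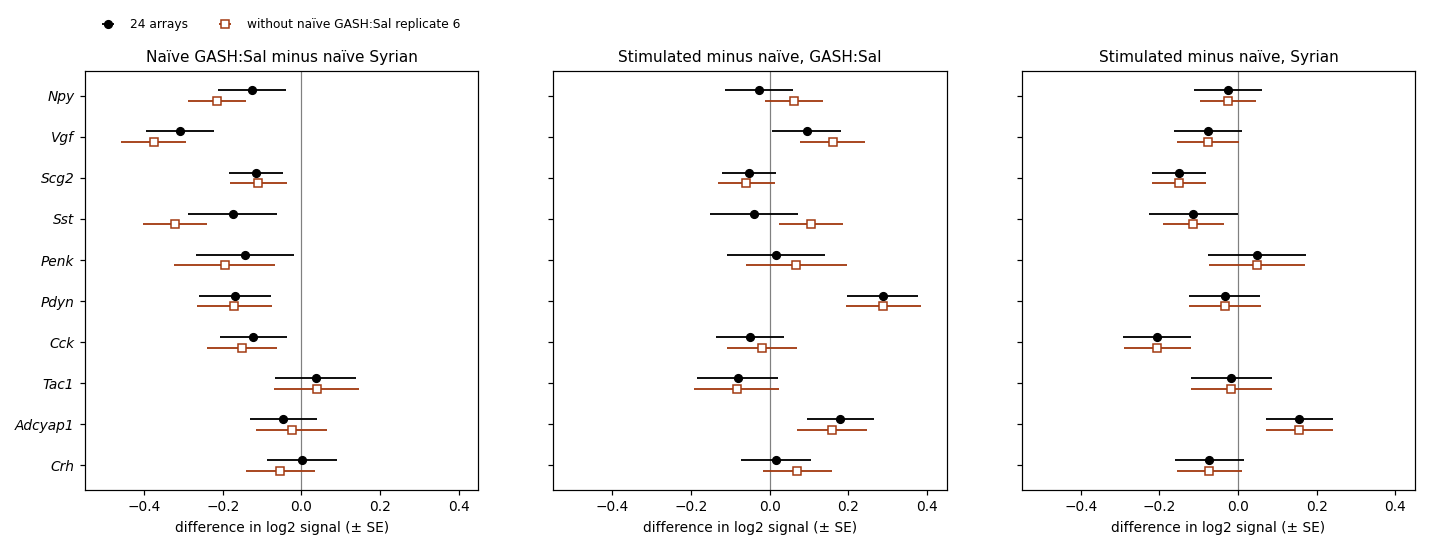
Difference in log2 signal (x axis, ± SE from limma) of each precursor gene for naïve GASH:Sal minus naïve Syrian, and for stimulated minus naïve animals in each strain. Black points use 24 arrays and open squares leave out naïve GASH:Sal replicate 6; leaving it out moves *Sst* in the naïve strain comparison from -0.18 to -0.32, *Npy* from -0.12 to -0.21 and *Vgf* from -0.31 to -0.38, and hardly moves *Pdyn*.

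Naïve GASH:Sal replicate 6 differed from its group over much of the table, with 31.3% of all genes above all 5 of the other arrays and 22.7% below all 5. *Sst* was 1.02 above the mean of the other 5 arrays, a difference that 0.155% of all genes exceeded. *Npy* was 0.58 above it, exceeded by 3.03% of genes, and *Vgf* 0.48 above it, exceeded by 5.81%. *Penk* was 0.35, *Crh* 0.34 and *Cck* 0.17 above it, exceeded by 11.8%, 12.6% and 28.9% of genes. Each of *Sst*, *Npy*, *Vgf*, *Penk*, *Crh* and *Cck* lay above all 5 of the other arrays, where 31.3% of all genes did. *Scg2*, *Pdyn*, *Tac1* and *Adcyap1* of this array lay between -0.12 and 0.00 of that mean. The array was therefore not higher in all precursor genes.

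Telencephalon markers were more often high on this array than all genes were, of which 31.3% lay above the other 5 arrays. Of 12 telencephalon markers tested of 14 listed, 8 were above all of the other 5 naïve GASH:Sal arrays and 0 below, with a median of 0.30. The largest differences were those of *Drd2* (1.08), a dopamine receptor gene, and *Lhx2* (0.62), a cortical transcription factor. *Emx2* (0.49), *Emx1* (0.19), *Neurod6* (0.05) and *Lmo3* (-0.06) of the same list were not above all 5. The other lists are given as counts beside the same share. Of 14 midbrain markers, 6 were above and 2 below, and of 12 cerebellar markers tested of 13 listed, 5 were above and 1 below. Of 9 neuron markers, 4 were above and 3 below, with *Tubb3* 0.96 above and the glutamate transporter gene *Slc17a6* 0.92 below the other arrays' mean. Of 15 glial, vessel and blood markers tested of 18 listed, 7 were above and 3 below, and of 9 choroid and ventricle markers tested of 10 listed, 0 were above and 2 below. The mean log2 signal of the telencephalon list was 5.21 to 5.28 on naïve Syrian arrays and 5.09 to 5.52 on naïve GASH:Sal arrays, with 5.52 on replicate 6 and at most 5.29 on the others. It was 5.16 to 5.43 in stimulated Syrian and 5.16 to 5.36 in stimulated GASH:Sal animals. The part of these markers in the *Npy*, *Sst* and *Vgf* values was not tested.

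**Figure D3:**
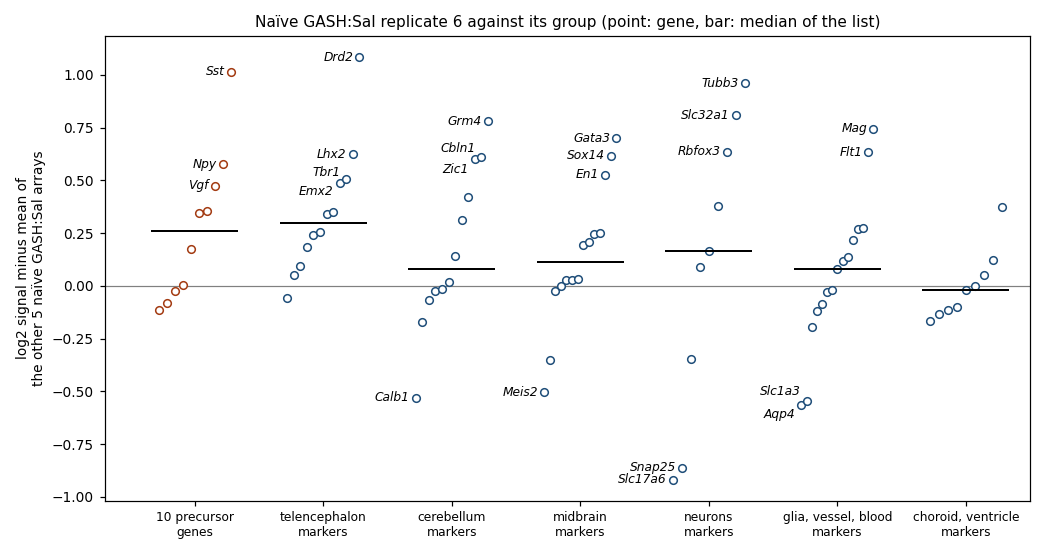
Log2 signal of naïve GASH:Sal replicate 6 minus the mean of the other 5 naïve GASH:Sal arrays (y axis) for the 10 precursor genes and for 6 lists of region and cell type markers (x axis). Each point is a gene and each bar the median of its list; *Sst* (1.02) stands with *Drd2* (1.08) at the top, and the median of the telencephalon list is 0.30.

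Read against all genes, the strain contrast of naïve animals held 1 precursor gene of 10 at an unadjusted p under 0.05 (*Vgf*, lower in GASH:Sal), where 6.02% of all genes passed. At the adjusted threshold it held 0 of 10 and 0% of all genes. Without replicate 6 it held 3 of 10 at the unadjusted threshold (*Npy*, *Vgf* and *Sst*, all lower) against 8.79%, and 0 of 10 at the adjusted threshold against 0.0652%. With all arrays 0 of 10 genes had naïve groups that did not overlap, against 0.271% of all genes, and without replicate 6 the same 3 genes did not overlap, against 1.12%. Signal below 0 in this contrast was found for 8 of 10 precursor genes and 54.2% of all genes with all arrays, and for 9 of 10 and 56.2% without replicate 6. Replicate 6 was singled out because its *Npy* value was seen to be high, so the values without it are a description.

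Beside this contrast, 10 of 14 midbrain markers lay above 0 in naïve GASH:Sal, where 54.2% of all genes lay below 0. At an unadjusted p under 0.05 were 3 of them, against 6.02% of all genes. These were *Tfap2b* (0.38 ± 0.12), *Gata3* (0.26 ± 0.12) and *En2* (0.26 ± 0.08), transcription factors of the midbrain and its GABAergic neurons. The median of the midbrain list was 0.04, and without replicate 6 it was 0.01. At the unadjusted threshold were then 2 markers, against 8.79% of all genes, since *Gata3* was at 0.15 (limma, unadjusted p = 0.174). Of 12 cerebellar markers 5 lay above 0 and 7 below (median -0.02), of 12 telencephalon markers 4 above and 8 below (median -0.03), and of 9 neuron markers 2 above and 7 below (median -0.02), against a median of -0.01 over all genes. *Gad2*, a gene of GABA synthesis, lay higher in naïve GASH:Sal (0.19 ± 0.08). The other GABA synthesis gene, *Gad1*, went the other way, with means of 8.45 in naïve Syrian and 8.35 in naïve GASH:Sal animals. *Cbln3*, a cerebellar granule cell gene, lay lower (-0.30 ± 0.10), and *Emx1*, a cortical gene, also lay lower (-0.18 ± 0.08). None of these genes was called, and their part in the precursor values was not tested.

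Between stimulated animals of both strains, 0 of 10 precursor genes passed the unadjusted threshold, where 5.42% of all genes did. At the adjusted threshold 0 of 10 and 0% passed, and 0 of 10 had groups that did not overlap, against 0.251%. Averaged over both sound conditions, *Npy* and *Vgf* passed the unadjusted threshold (2 of 10, both lower in GASH:Sal) against 7.99% of genes. The *Vgf* difference was -0.22 ± 0.06 (adjusted p = 0.405), and 0 of 10 passed the adjusted threshold against 0.0100% of genes. Without replicate 6, *Npy*, *Vgf*, *Sst* and *Penk* passed the unadjusted threshold, all lower, against 10.2% of genes. *Vgf* was then at -0.26 ± 0.06 with an adjusted p of 0.0521, and 0 of 10 passed the adjusted threshold against 0.181%.

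*Pdyn* encodes prodynorphin, the source of the dynorphins that act on the kappa opioid receptor. Its log2 signal ran from 4.56 to 4.94 in naïve GASH:Sal (median 4.75) and from 4.93 to 5.35 in stimulated GASH:Sal (median 4.98). Naïve replicate 2, at 4.94, lay above the lowest 2 stimulated arrays, and all 6 stimulated arrays lay above the naïve mean. The difference was 0.29 ± 0.09 (SE; 95% interval 0.10 to 0.47), a 1.22-fold higher signal after sound, and it was not called (limma, unadjusted p = 0.00346, adjusted p = 0.999; exact permutation test, two-sided, p = 0.00649). It was 0.19 in label series A, 0.38 in series B and 0.29 ± 0.10 without naïve replicate 6.

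In Syrian hamsters *Pdyn* ran from 4.69 to 5.21 in naïve animals (median 4.98) and from 4.74 to 5.10 after sound (median 4.87), with nearly the same range. The difference there was -0.03 ± 0.09 (95% interval -0.22 to 0.15). The responses of the strains differed by 0.32 ± 0.13 (unadjusted p = 0.0177, adjusted p = 1.0), which with all arrays made *Pdyn* the only precursor gene of 10 at the unadjusted threshold in this contrast, where 3.68% of all genes passed. Without naïve replicate 6, *Pdyn* (0.32 ± 0.13) and *Vgf* passed it, 2 of 10 against 4.80% of genes. At the adjusted threshold 0 of 10 and 0% of genes passed. *Pdyn* was lower in GASH:Sal than in Syrian animals when naïve (-0.17 ± 0.09) and higher when stimulated (0.15 ± 0.09), neither past the unadjusted threshold.

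*Penk* encodes proenkephalin, the source of the enkephalins. Its signal ran from 4.12 to 4.86 in naïve Syrian (median 4.61), from 4.20 to 4.97 in stimulated Syrian (median 4.66), from 4.12 to 4.70 in naïve GASH:Sal (median 4.42) and from 4.30 to 4.67 in stimulated GASH:Sal (median 4.38). All 4 ranges overlapped widely. The sound difference was 0.05 ± 0.13 in Syrian and 0.02 ± 0.13 in GASH:Sal animals. The naïve strains differed by -0.14 ± 0.13 and the stimulated strains by -0.18 ± 0.13.

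*Adcyap1* encodes PACAP, an excitatory peptide related to vasoactive intestinal peptide. It ran from 4.29 to 4.87 in naïve Syrian (median 4.78) and from 4.71 to 4.98 in stimulated Syrian animals (median 4.84). In GASH:Sal it ran from 4.56 to 4.79 when naïve (median 4.62) and from 4.60 to 4.95 when stimulated (median 4.87), where 5 of 6 stimulated arrays lay above every naïve array and replicate 6 at 4.60 did not. Stimulated minus naïve animals gave 0.16 ± 0.09 in Syrian (unadjusted p = 0.0790) and 0.18 ± 0.09 in GASH:Sal (unadjusted p = 0.0445, adjusted p = 0.999). Split by label series, the Syrian value was 0.32 for A against -0.01 for B. It was 0.07 without naïve Syrian replicate 2. The GASH:Sal value was 0.16 ± 0.09 without naïve GASH:Sal replicate 6 and did not pass the unadjusted threshold (unadjusted p = 0.0859). Over both strains the difference was 0.17 ± 0.06 (unadjusted p = 0.00956, adjusted p = 0.538), the lowest adjusted p of the 10 genes for sound. It was 0.28 within label series A and 0.06 within series B.

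*Cck* encodes cholecystokinin, and *Scg2* encodes secretogranin II, a granin of dense-core vesicles. *Cck* ran from 5.0 to 5.38 in naïve Syrian (median 5.26) and from 4.69 to 5.26 in stimulated Syrian animals (median 5.06). *Scg2* ran from 5.0 to 5.41 (median 5.17) and from 4.93 to 5.14 (median 5.05) in the same groups. Both genes thus had a lower median after sound in Syrian animals, with overlap. The differences were -0.21 ± 0.09 for *Cck* (unadjusted p = 0.0233, adjusted p = 0.726) and -0.15 ± 0.07 for *Scg2* (unadjusted p = 0.0372, adjusted p = 0.744). Most of each difference came from label series A, with -0.36 for *Cck* and -0.29 for *Scg2*, against -0.05 and -0.01 in series B.

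In GASH:Sal, *Cck* ran from 4.88 to 5.26 when naïve (median 5.13) and from 4.98 to 5.18 when stimulated (median 5.06). *Scg2* ran from 5.01 to 5.15 (median 5.07) and from 4.93 to 5.09 (median 5.04). Both genes overlapped between naïve and stimulated GASH:Sal animals, with differences of -0.05 ± 0.09 for *Cck* and -0.05 ± 0.07 for *Scg2*. The naïve strains differed by -0.12 in both genes, with a SE of 0.09 for *Cck* and 0.07 for *Scg2*.

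*Tac1* encodes substance P and neurokinin A, and *Crh* encodes corticotropin-releasing hormone. *Tac1* medians were 5.33 in naïve Syrian, 5.33 in stimulated Syrian, 5.33 in naïve GASH:Sal and 5.27 in stimulated GASH:Sal, over a range of 5.01 to 5.70. Its differences lay between -0.08 and 0.04 in the sound and strain contrasts of 6 against 6 arrays, each within its SE. *Crh* had medians of 2.45, 2.35, 2.46 and 2.45 in the same order. Its differences lay between -0.07 and 0.09, and without a detection call a low level and absence cannot be told apart.

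For sound, the precursor genes at an unadjusted p under 0.05 were *Pdyn* and *Adcyap1* in GASH:Sal (2 of 10, both higher) against 4.46% of genes, and *Scg2* and *Cck* in Syrian animals (2 of 10, both lower) against 6.64% of genes. Over both strains they were *Adcyap1* (higher), *Scg2* and *Cck* (lower), 3 of 10 against 7.39% of genes. Without naïve GASH:Sal replicate 6, *Pdyn* alone passed in GASH:Sal (1 of 10 against 4.47%), and *Adcyap1* (higher) and *Scg2* (lower) passed over both strains (2 of 10 against 7.10%). At the adjusted threshold 0 of 10 passed in GASH:Sal (0% of genes), in Syrian animals (0%) and over both strains (0.00502%, *Fos* alone). Groups that did not overlap were found for 0 of 10 genes in GASH:Sal, against 0.226% of genes, and for 0 of 10 in Syrian animals, against 0.291%. The median difference of the 10 genes was -0.01 in GASH:Sal and -0.05 in Syrian animals, against 0.01 and 0.02 over all genes. The comparisons of a strain's sound response and of the naïve strains share the naïve groups, so that a low naïve GASH:Sal value enters both.

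Activity-regulated genes served as a comparison for the size of a response to sound. All 15 of these genes lay above 0 in stimulated GASH:Sal, with a median difference of 0.36. Of these, 12 had an unadjusted p under 0.05, where 4.46% of all genes did. In Syrian animals 13 of 15 lay above 0, with a median of 0.13, and 4 had an unadjusted p under 0.05, against 6.64% of all genes. *Fos*, which encodes a transcription factor induced by firing, differed by 0.68 ± 0.12 in GASH:Sal (adjusted p = 0.0576), by 0.48 ± 0.12 in Syrian animals (adjusted p = 0.570) and by 0.58 ± 0.08 over both strains, where it was called (adjusted p = 0.00222). *Npas4*, a transcription factor of the same early response, differed by 0.59 ± 0.18 in GASH:Sal and by 0.43 ± 0.12 over both strains (adjusted p = 0.370).

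**Figure D4:**
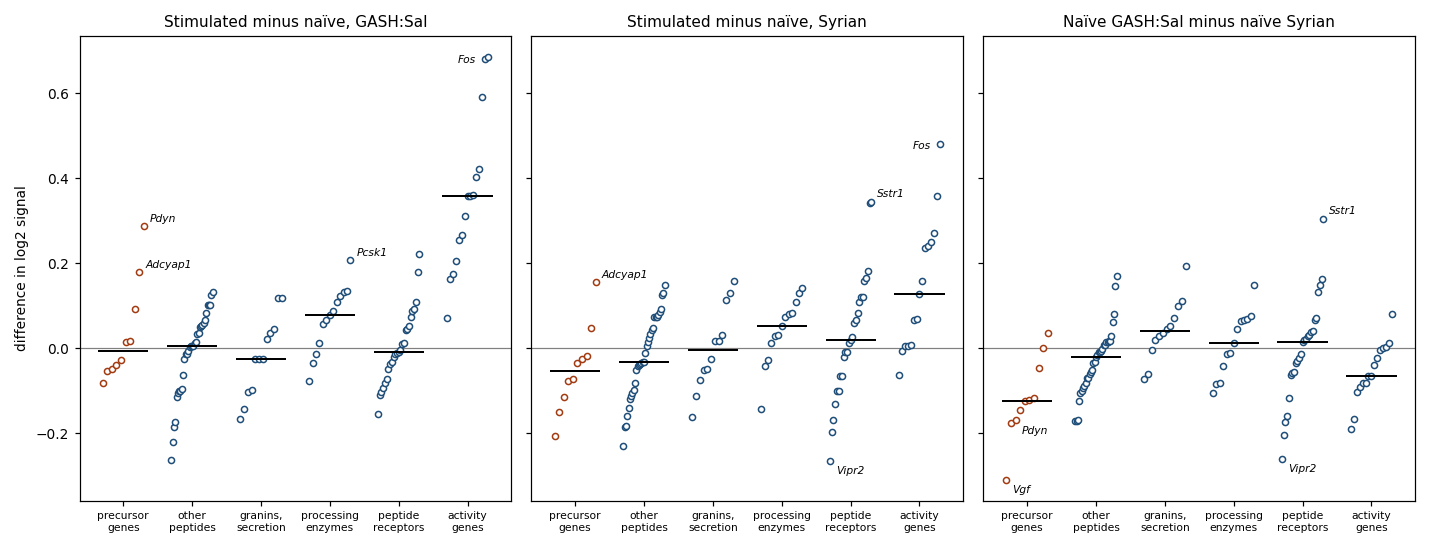
Difference in log2 signal (y axis) of each gene in the precursor list, the list of other peptides, granins and secretion genes, processing enzymes, peptide receptors and activity-regulated genes (x axis), for sound in each strain and for the naïve strains. Points are genes and bars list medians; the activity-regulated genes have a median of 0.36 after sound in GASH:Sal, and the precursor genes one of -0.12 between the naïve strains.

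Of 36 other neuropeptide precursors listed, 33 were tested and 0 were called in any contrast. In GASH:Sal, 3 of 33 were lower after sound at an unadjusted p under 0.05, where 4.46% of all genes passed in either direction. These were *Tac2* (-0.22 ± 0.10), *Pomc* (-0.19 ± 0.09) and *Vip* (-0.17 ± 0.08), which encode neurokinin B, the melanocortin and endorphin precursor, and vasoactive intestinal peptide. Without naïve replicate 6, *Vip* still passed (limma, unadjusted p = 0.0212), and *Tac2* (unadjusted p = 0.106) and *Pomc* (unadjusted p = 0.104) did not. *Pomc* was also lower after sound in Syrian animals (-0.23 ± 0.09), and over both strains it differed by -0.21 ± 0.06 (unadjusted p = 0.00245, adjusted p = 0.425). The responses of *Vip* differed between the strains by -0.32 ± 0.11 (unadjusted p = 0.00649, adjusted p = 1.0), opposite in sign to *Pdyn*. In naïve animals 22 of 33 lay lower in GASH:Sal, with a median of -0.02 against -0.12 for the 10 precursor genes.

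Of 12 other granins and dense-core vesicle genes, 0 were called, and no contrast held more than 1 at an unadjusted p under 0.05. The share of all genes under that threshold ran from 3.68% to 7.99% over the contrasts. *Scg5*, which encodes the chaperone of a prohormone convertase, was lower in stimulated GASH:Sal (-0.17 ± 0.08), and *Pcsk1n*, which encodes an inhibitor of another, was lower after sound over both strains (-0.15 ± 0.07), both at an unadjusted p under 0.05. Without naïve GASH:Sal replicate 6, *Pcsk1n* was at -0.11 and did not pass (unadjusted p = 0.0956). *Cadps2*, which encodes a vesicle priming protein, was higher in naïve GASH:Sal than in naïve Syrian animals (0.19 ± 0.08, adjusted p = 0.764). The median of the granin list between naïve strains was 0.04, of the opposite sign to that of the 10 precursor genes. Without naïve GASH:Sal replicate 6 the granin median was 0.01 and that of the 10 precursor genes -0.16.

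Of 14 processing enzymes, 13 were tested and 0 were called. *Pcsk1*, the convertase that cuts many of these precursors, was higher after sound in GASH:Sal (0.21 ± 0.08, unadjusted p = 0.0116, adjusted p = 0.999), by 0.37 in label series A against 0.04 in series B. It was the only enzyme at the unadjusted threshold there, where 4.46% of all genes passed. In GASH:Sal 10 of 13 enzymes lay above 0 with a median of 0.08, and in Syrian animals also 10 of 13, with a median of 0.05. The medians over all genes were 0.01 in GASH:Sal and 0.02 in Syrian animals. *Cpd*, a carboxypeptidase, was higher in GASH:Sal over both sound conditions (0.15 ± 0.06, adjusted p = 0.596).

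Of 25 receptors for the peptides of the 10 genes, 0 were called. After sound, 3 were higher and 1 lower in Syrian animals at an unadjusted p under 0.05, where 6.64% of all genes passed. In GASH:Sal 2 were higher, where 4.46% of all genes passed. The neuropeptide Y receptor genes *Npy6r*, 1 of these 2, and *Npy2r* had low signals, at percentiles 0.863 and 16.4 of all genes. *Sstr1*, a somatostatin receptor, was higher after sound in Syrian animals (0.34 ± 0.11, unadjusted p = 0.00515, adjusted p = 0.715) and higher in naïve GASH:Sal than in naïve Syrian animals (0.31 ± 0.11). The naïve strain value was 0.07 for label series A against 0.54 for B, and 0.23 without naïve replicate 6, where it no longer passed the unadjusted threshold. *Npy2r*, a neuropeptide Y receptor, was higher after sound in Syrian animals (0.34 ± 0.11, adjusted p = 0.700), by 0.09 in label series A against 0.60 in series B. The delta opioid receptor gene *Oprd1* was higher after sound in GASH:Sal (0.22 ± 0.08) and lower in naïve GASH:Sal than in naïve Syrian animals (-0.20 ± 0.08). *Oprk1*, the kappa receptor for dynorphin, was lower in stimulated GASH:Sal than in stimulated Syrian animals (-0.20 ± 0.09). *Vipr2*, a receptor for PACAP and vasoactive intestinal peptide, was lower after sound in Syrian animals (-0.26 ± 0.09) and lower in naïve GASH:Sal (-0.26 ± 0.09). None of these passed the adjusted threshold, and each was named because it passed the unadjusted one.

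Among the 10 genes, values were related across animals after the mean of each group and label series was taken out. Of 45 pairs, 0 passed a permutation test after Benjamini-Hochberg adjustment (100000 resamples within groups and label series, two-sided), and 2 had an unadjusted p under 0.05. The pair with the lowest p was *Tac1* and *Crh*, with r = -0.61 (permutation p = 0.0110, adjusted p = 0.497) and rho = -0.61 (permutation p = 0.00895, adjusted p = 0.403) over 24 arrays, and r = -0.55 without the 2 arrays farthest from the median of *Tac1*. The *Crh* signal was low (group medians 2.35 to 2.46), and without a detection call a low level and absence cannot be told apart. *Npy* and *Sst* had r = 0.63 (permutation p = 0.236, adjusted p = 0.663) and rho = 0.21 (permutation p = 0.468, adjusted p = 0.842), and r = 0.40 without the 2 arrays farthest from the median of *Npy*. Without naïve GASH:Sal replicate 6 the *Npy* and *Sst* pair had r = -0.15 (permutation p = 0.581) over 23 arrays, so the relation rested on that array. *Npy* and *Vgf* had r = 0.50 (permutation p = 0.0979, adjusted p = 0.628), rho = 0.35 (permutation p = 0.187, adjusted p = 0.739) and r = 0.21 without replicate 6.

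The genes whose deviations were most like those of *Npy* over the 24 arrays, of 19937 compared, were *Gfpt2* (r = 0.88), *Tmcc2* (r = 0.88) and *Rpl7a* (r = 0.88). Without replicate 6 they were *Gfpt2* (r = 0.93), *Ofd1* (r = 0.90) and *Lrrc69* (r = 0.88), so *Gfpt2* led both times. *Lgi2* led for *Vgf* with and without replicate 6 (r = 0.88 and 0.85), followed with all arrays by *Ppp5c* (r = 0.81) and *Nat8l* (r = 0.80). *Timm17b* led for *Scg2* (r = 0.77 and 0.82), followed with all arrays by *Prdm9* (r = 0.75) and *Cldn3* (r = 0.75). These are the highest of many values, all arrays share the same normalisation, and no test was made of them.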

How the data were processed

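Total RNA of 24 IC samples was hybridised by the authors to mouse whole-transcript arrays. The authors deposited log2 signals after RMA, named in the submitters' processing notes without a version. RMA corrects background, normalises between arrays and summarises probes, so a change shared by most genes would be removed. Of 35556 probe sets, 21789 carried 1 gene symbol in the platform annotation, 1621 several and 12146 none. Those with 1 symbol were used, the highest-mean probe set for each of the 999 genes with more than 1, which left 19938 genes. No filter was applied.

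Groups came from the labels. The model in limma (version 3.58.1, R version 4.3.3; lmFit and eBayes) held 4 groups and label series, with 19 residual degrees of freedom and 7 contrasts. P-values are two-sided and rest on the spread between these animals. Arrays give no read depth, so their number limits the precision, with a median SE of 0.09 on the log2 scale for a difference of 2 groups. The fit was tested on simulated data. Correlations used numpy (version 2.4.6) and permutations within groups and label series.

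The genes and lists were chosen with earlier results of these data known. Named in every contrast were the 10 genes, and of each other list at most 4 genes per contrast with an unadjusted p under 0.05 and the largest differences, of which the text gives a part. *Fos* and *Npas4* and the 3 genes most like *Npy*, *Vgf* and *Scg2* were also named. Alternatives were other covariates, a replicate block, each label series, fits of only the compared groups, a filter at percentile 50 of signal, other treatments of probe sets, median centring, quantile normalisation, a trend and robust variance, array weights and leaving out each array. Label series B without naïve GASH:Sal replicate 6, and leaving out both arrays that stood apart, were added after seeing the data, as was Spearman's rho as a count.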

Additional observations from a re-analysis of the deposited data

Results flagged for a closer look

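Among 40 sets of 6 values, 10 genes in 4 groups, 3 held an array far from the other 5, and about 1 in 20 sets would by chance. Naïve GASH:Sal replicate 6 was known for its high *Npy* value beforehand, so its gaps are a description. *Npy* of naïve GASH:Sal replicate 6 (7.28, next 6.75) left a gap of 0.899 of its group's range. *Sst* of the same array (8.18, next 7.27) left a gap of 0.839. *Adcyap1* of stimulated GASH:Sal replicate 6 was the lowest of its group (4.60, next 4.84), with a gap of 0.687.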

How the results depend on the processing

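The number of precursor genes called was 0 in 213 of 215 recomputed counts. The exceptions were the naïve strain comparison with array weights (1 gene, *Vgf*) and without both arrays that stood apart (1 gene, *Vgf*). Of the 45 pairs, 0 passed without naïve GASH:Sal replicate 6, with deviations from the 4 group means or with rho. Of 2129 recomputed differences, 113 changed sign by no more than the SE of the value reported, and 36 changed sign by more, as follows.

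With 1 array left out at a time, sound in GASH:Sal ran from -0.065 to 0.061 for *Npy* and from -0.098 to 0.11 for *Sst*, positive for *Sst* only without naïve GASH:Sal replicate 6, and for *Npy* also without stimulated replicate 4 (0.014). Without naïve GASH:Sal replicate 6 and stimulated Syrian replicate 4, sound in GASH:Sal gave *Npy* 0.064 and *Sst* 0.10 and the difference between responses gave *Npy* 0.15. In label series A alone, sound in GASH:Sal gave *Npy* 0.064 and *Tac1* 0.091, the naïve strains gave *Adcyap1* 0.063 and *Crh* -0.20, the stimulated strains gave *Tac1* 0.11, sound over both strains gave *Tac1* 0.054 and strain over both sound conditions gave *Cck* 0.035. In label series B alone, sound in GASH:Sal gave *Vgf* -0.011, *Penk* -0.16 and *Crh* -0.11, sound in Syrian gave *Adcyap1* -0.0098 and *Crh* 0.11, the stimulated strains gave *Cck* -0.12 and *Crh* -0.026, the difference between responses gave *Vgf* -0.013, *Scg2* -0.029 and *Crh* -0.22 and sound over both strains gave *Penk* -0.057. In series B without naïve replicate 6, sound in GASH:Sal gave *Npy* 0.077, *Sst* 0.24 and *Cck* 0.052, sound in Syrian gave *Adcyap1* -0.0098 and *Crh* 0.11, the naïve strains gave *Scg2* 0.0073, the stimulated strains gave *Cck* -0.12 and *Crh* -0.026, the difference between responses gave *Scg2* -0.051 and *Crh* -0.14 and sound over both strains gave *Sst* 0.12, *Cck* 9.2e-05 and *Crh* 0.041. The cause was not tested.

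Correlations of same-numbered deviations ran from -0.16 to 0.32 over 36 pairs, and from 0.09 to 0.23 for replicate 1. This range alone does not show whether replicate numbers pair the arrays. With the replicate block, *Vgf* between naïve strains was -0.31 ± 0.09 (adjusted p = 0.790), and 0 precursor genes were called. With a filter at the median signal, the lowest adjusted p among the precursor genes kept was 0.370. Each group held 6 arrays, and the exact test of 6 against 6 could not be adjusted over all genes.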
